A study of Mus musculus with 2 samples.

Results

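Serpina3g, Serpina3f and Serpinb1a are 3 mouse serpin genes that were followed in late promyelocytes of a leukemia driven by the PLZF/RARA fusion. They were taken by symbol as 3 of the 32285 genes counted, and were selected on their levels in these same libraries, which were already known when the genes were picked. Their differences between the libraries are therefore a description, with no test. The leukemic cells are progenitors transformed by PLZF/RARA, a fusion of the zinc finger protein PLZF with retinoic acid receptor alpha. Both groups came from leukemic bone marrow, sorted as Cd45.2+, c-Kit+, Gr1+, FcγR+ and Cd34- cells. The treated group had 7 days of retinoic acid, 0.8 to 1 mg given intraperitoneally. The vehicle group had corn oil with 10% DMSO by the same route. The labels give a cohort of 3 to 5 mice but not how many mice gave cells to a library, nor the strain or age of the mice, nor how the fusion was expressed. Each group held 1 droplet library, so mouse, sort, library preparation and treatment cannot be told apart.

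Serpins are protease inhibitors that offer an exposed loop, the reactive centre loop, as bait. A protease that cuts the loop is trapped in a lasting complex with the serpin, so each molecule is used once. Serpinb1a encodes the mouse counterpart of SERPINB1, a cytosolic inhibitor of neutrophil elastase (Elane), cathepsin G (Ctsg) and proteinase 3 (Prtn3), the serine proteases that promyelocytes load into primary granules. Serpina3g, also called Spi2A, encodes an intracellular serpin known from T cells and hematopoietic progenitors that can inhibit cysteine cathepsins. Serpina3f is its neighbour in a cluster of Serpina3 copies that is expanded in mice.

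Which protease a serpin traps depends on its reactive centre loop, so the coding stretch that starts at the hinge before the loop is shown for each. Each stretch holds 78 bases (26 codons), read from GENCODE M21 transcripts on GRCm38, and lies in the last exon. For Serpina3g it is chr12:104241072-104241149 (+ strand, exon 5 of 5), for Serpina3f chr12:104220245-104220322 (+ strand, exon 6 of 6), and for Serpinb1a chr13:32842893-32842970 (- strand, exon 7 of 7). Capitals mark the bases that differ between Serpina3g and Serpina3f.
Serpina3g: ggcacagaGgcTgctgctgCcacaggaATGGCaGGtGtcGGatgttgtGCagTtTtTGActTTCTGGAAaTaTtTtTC
Serpina3f: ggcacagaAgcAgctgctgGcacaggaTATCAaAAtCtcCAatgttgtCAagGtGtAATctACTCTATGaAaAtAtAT
Serpinb1a: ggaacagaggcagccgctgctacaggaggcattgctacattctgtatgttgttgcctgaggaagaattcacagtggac
Here Serpina3g and Serpina3f differed at 33 of 78 bases (57.7% identical), most of them after the shared hinge. The longest coding transcripts were used, of which that of Serpina3g is the shorter (248 codons against 445 in Serpina3f). Their coding sequences aligned over 696 bases, with 90.1% identity there. The last 500 bases of the transcripts, where 3′ libraries are read, aligned over 491 bases with 87.6% identity and a longest shared run of 54 bases. Reads that fall in such runs could be split or dropped between the copies, so the count of either gene, Serpina3f above all, is uncertain to that extent.

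The promoters of the 2 copies are shown because both genes were lower in the same library. Each is the 250 bases before the RefSeq start (GRCm38.p6, + strand), at chr12:104235897-104236146 for Serpina3g and chr12:104214294-104214543 for Serpina3f, and capitals mark the STAT palindrome TTCNNNGAA.
Serpina3g: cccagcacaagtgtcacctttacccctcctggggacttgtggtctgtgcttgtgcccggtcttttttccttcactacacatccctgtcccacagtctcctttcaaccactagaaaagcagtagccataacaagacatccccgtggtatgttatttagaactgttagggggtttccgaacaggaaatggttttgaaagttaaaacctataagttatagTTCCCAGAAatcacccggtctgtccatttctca
Serpina3f: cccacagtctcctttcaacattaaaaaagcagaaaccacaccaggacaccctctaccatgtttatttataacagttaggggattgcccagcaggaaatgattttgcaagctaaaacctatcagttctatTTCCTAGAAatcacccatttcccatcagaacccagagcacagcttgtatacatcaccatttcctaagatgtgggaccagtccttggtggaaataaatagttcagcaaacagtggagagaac
The windows aligned over 144 bases with 82.6% identity, and the palindrome lies inside the matching block. It begins 33 bases before the RefSeq start in Serpina3g and 121 bases before it in Serpina3f. GENCODE starts Serpina3g further downstream, at 104236245, so the shorter distance depends on the annotation used. The palindrome is held on either strand by 7.02% of 32851 windows of this length in the table. The RUNX letters TGTGGT, counted on either strand, matched once in each window, on the printed strand in Serpina3g and as ACCACA in Serpina3f, against 14.1% of all windows. No match was found on either strand for TTCNNNNGAA (5.85% of windows), AGGTCA (14.0%), TGACTCA (4.46%) or AGATAA (9.99%). The RefSeq table gave 2 starts for Serpina3f, of which the one listed first was used.

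After filtering, the vehicle library held 5476 cells and 99107718 UMIs (unique molecular identifiers, each marking 1 captured RNA molecule), and the retinoic acid library 7140 cells and 110088247 UMIs. The median cell had 16750 and 14604 UMIs. Levels are given in CPM, a gene's UMIs for every 1e6 UMIs of the library, which for 3′ tags do not scale with gene length. Ratios are retinoic acid over vehicle, and 95% intervals cover counting error only. The libraries shared 11 barcodes, 0.201% of the vehicle cells and 0.154% of the retinoic acid cells. The labelled cell type was set beside its markers, and 99.1% of vehicle cells and 99.7% of retinoic acid cells had UMIs of at least 3 of 8 late promyelocyte genes. Kit, a sorting marker, was the only one of the 8 below 20 CPM in both libraries. Most retinoic acid cells also passed the neutrophil list that follows, so passing the late promyelocyte list does not by itself fix the stage. At least 3 of 8 neutrophil genes, which summed to 1394 and 60058 CPM, were found in 7.78% and 98.2% of cells, and at least 3 of 9 mast cell or basophil genes in 634 vehicle cells (12.0%) and 1 retinoic acid cell. At least 3 of 6 eosinophil genes were found in 27 vehicle cells, 17 of them positive for Serpina3g, and in 6 retinoic acid cells, none of them positive for it. No cell in either library had 3 markers of B cells, T cells, erythroid cells, monocytes, megakaryocytes, or of hepatocytes or endothelium.

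Serpina3g went from one of the more abundant messages of the vehicle cells to a rare one in the retinoic acid cells. The gene (ENSMUSG00000041481, chr12:104236245-104241939, + strand) had 31204 UMIs in the vehicle library, 315 CPM (311 to 318). Under retinoic acid it had 683 UMIs, 6.20 CPM (5.75 to 6.69). It was thus 50.7-fold lower (47.0 to 54.8), a log2 ratio of -5.66. Among the 5548 genes that reached 20 CPM in 1 library or both its level ranked 430th under vehicle and 5492nd under retinoic acid, and 13 genes had a lower ratio. Of those 5548 genes, 8.07% differed at least 2-fold either way and 5.05% were at least 2-fold lower. Serpina3g was one of these by the way it was chosen, and nothing is read from its being among them.

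The message was also detected in fewer cells, which in counts this sparse is not separate from the lower level itself. Cells were compared at equal depth, after each cell with at least 5000 UMIs had been thinned at random to 5000. That step used 5282 cells of the vehicle library and 6659 of the other, and 194 and 481 cells were too shallow for it. Serpina3g was found in 3669 vehicle cells (69.5%, 68.2 to 70.7) and in 156 retinoic acid cells (2.34%, 1.99 to 2.74). Unthinned, the shares were 89.2% and 6.86%. The vehicle cells were spread over a wide range, with 1422 cells at 1 UMI, 345 at 5 or more and 14 at 10 or more. No retinoic acid cell had more than 2 thinned UMIs, and 361 of the 490 positive cells before thinning held a single UMI. The variance of the thinned counts was 1.89 times their mean under vehicle and 1.22 times under retinoic acid. In the vehicle library 1109 of 5476 cells held 50% of the Serpina3g UMIs, so the message was not carried by a handful of cells.

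Serpina3f was lower by a similar order, from a far lower start. The gene (ENSMUSG00000066363, chr12:104214544-104221129, + strand) ends 15116 bases before Serpina3g begins. It had 743 UMIs under vehicle, 7.50 CPM (6.97 to 8.06), and 35 UMIs under retinoic acid, 0.318 CPM (0.221 to 0.442). Its level was 23.3-fold lower (16.8 to 34.1), a log2 ratio of -4.54. It did not reach 20 CPM, and with a limit of 5 CPM 6.76% of 9145 genes were at least 2-fold lower. At equal depth 194 vehicle cells (3.67%, 3.18 to 4.22) and 6 retinoic acid cells (0.0901%, 0.0331 to 0.196) were positive, and no cell held more than 2 UMIs. Unthinned, the shares were 10.8% and 0.448%. These values lie close to the limit of detection, so an individual cell without a Serpina3f UMI is not shown to lack the message.

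Serpina3f was found more often in vehicle cells that also held Serpina3g. Serpina3f was positive in 4.36% (3.72 to 5.07) of the 3669 Serpina3g-positive cells and in 2.11% (1.46 to 2.93) of the 1613 negative ones. Across the 5282 vehicle cells the Spearman correlation of their thinned UMIs was 0.103, too weak in such sparse counts to be a finding. Serpina3g reads counted as Serpina3f because of the shared 3′ runs could give the same pattern, and their part was not tested. Serpina3g outnumbered Serpina3f by 42.0 to 1 in UMIs under vehicle and by 19.5 to 1 under retinoic acid. The other 8 Serpina3 symbols had at most 5 UMIs in either library, so the level of the other copies could not be followed.

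Serpinb1a, the elastase and cathepsin G inhibitor, was abundant in both libraries and moderately higher under retinoic acid. The gene (ENSMUSG00000044734, chr13:32842092-32851185, - strand) had 77376 UMIs under vehicle, 781 CPM (775 to 786), and 123271 UMIs under retinoic acid, 1120 CPM (1114 to 1126). The ratio was 1.43-fold (1.42 to 1.45), a log2 ratio of 0.52, which is inside the 2-fold limit that all but 8.07% of genes kept to. TMM scaling, which discounts genes that take a large share of a library, gave 0.60. Its rank among 5548 genes was 187th under vehicle and 143rd under retinoic acid.

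Nearly every cell held Serpinb1a, and it was the number of molecules per cell that shifted. At equal depth 94.6% (94.0 to 95.2) of vehicle cells and 98.2% (97.8 to 98.5) of retinoic acid cells were positive. The median was 4 UMIs (quartiles 2 and 5) in a vehicle cell and 5 (3 and 8) in a retinoic acid cell. Cells with 10 or more made up 3.58% and 11.9%. The distributions overlapped widely. Those of Serpina3g shared only the range of 0 to 2 UMIs, which held every retinoic acid cell. Of vehicle cells, 30.5% had 0 Serpina3g UMIs, 26.9% had 1 and 18.8% had 2, so most of them also lay in that range.

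**Figure D1:**
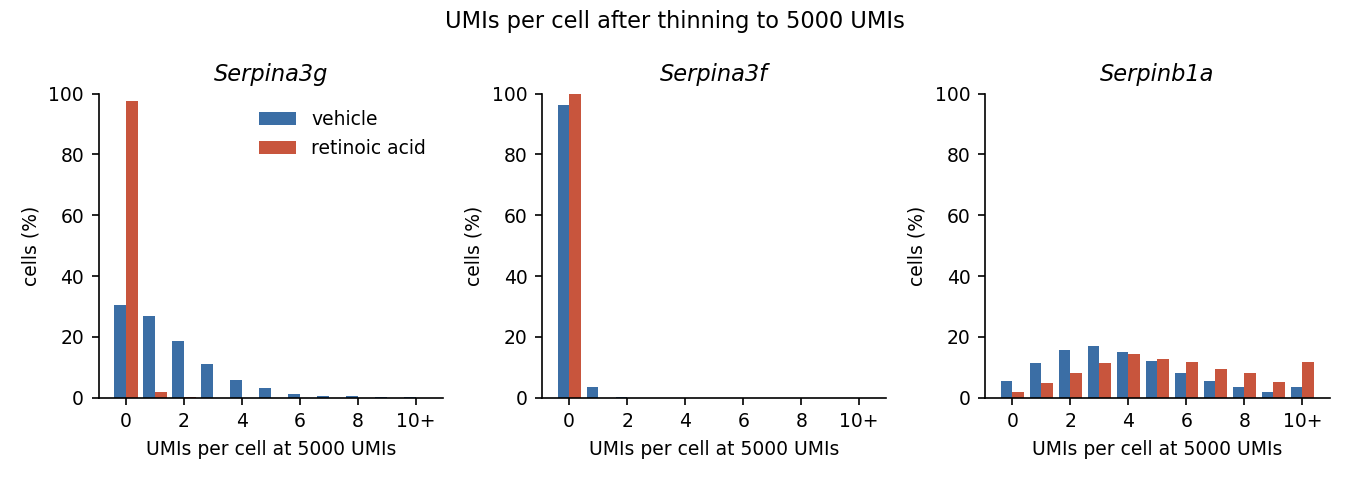
Percent of cells (vertical axis) with each number of UMIs (horizontal axis) of Serpina3g, Serpina3f and Serpinb1a after thinning to 5000 UMIs, in 5282 vehicle cells (blue) and 6659 retinoic acid cells (red). For Serpina3g 97.7% of retinoic acid cells stand at 0, while for Serpinb1a both libraries spread over the whole range with retinoic acid shifted to the right.

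In sums over a library, fewer cells with a message and less message per cell cannot be told apart, and in counts as sparse as those of Serpina3g under retinoic acid (a mean of 0.0267 thinned UMIs per cell) thinning does not separate them either. Free RNA in the droplets could also give single UMIs to cells that do not make a message. No population that should lack these genes was present to measure it. At the same thinned depth, Serpina3g was found in 1 (0.206%, 0.00521 to 1.14) of the 486 Ctsg-negative retinoic acid cells. Of all retinoic acid cells, 2.34% were positive. The Ctsg-negative cells are not known to lack the message, so their share does not measure free RNA, whose part was not tested. In the vehicle library 28.2% (18.1 to 40.1) of the 71 Ctsg-negative cells were positive for Serpina3g, against 70.0% of the 5211 Ctsg-positive cells.

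The members were next set among the whole serpin family, taken by symbol and not by how it moved. Of 62 serpin symbols, 30 had no UMI in either library and 19 had at least 10 UMIs over both. The median log2 ratio of those 19 was -0.21, with 9 above 0 and 10 below, while the median of all 5548 genes was 0.01. At 20 CPM or more in 1 library or both there were 4 serpins, and 3 of them were at least 2-fold lower under retinoic acid (Serpina3g, Serpine2 and Serpinb6a), against 5.05% of all 5548 genes. Serpina3g was chosen on this difference, so its place in the count is no finding. Serpine2, which encodes protease nexin 1, an inhibitor of thrombin and urokinase, went from 142 to 36.8 CPM (log2 ratio -1.95). Serpinb6a, a cytosolic serpin related to an inhibitor of cathepsin G, went from 249 to 107 CPM (-1.22). Among serpins that did not reach 20 CPM, and named after their values were seen, Serpina11 was higher under retinoic acid, at 1.94 against 16.5 CPM (3.08). The family therefore did not share a direction, and Serpina3g and Serpina3f were its members with the lowest ratios among the 19. Both were selected on their levels in these libraries, so that place is no finding either.

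**Figure D2:**
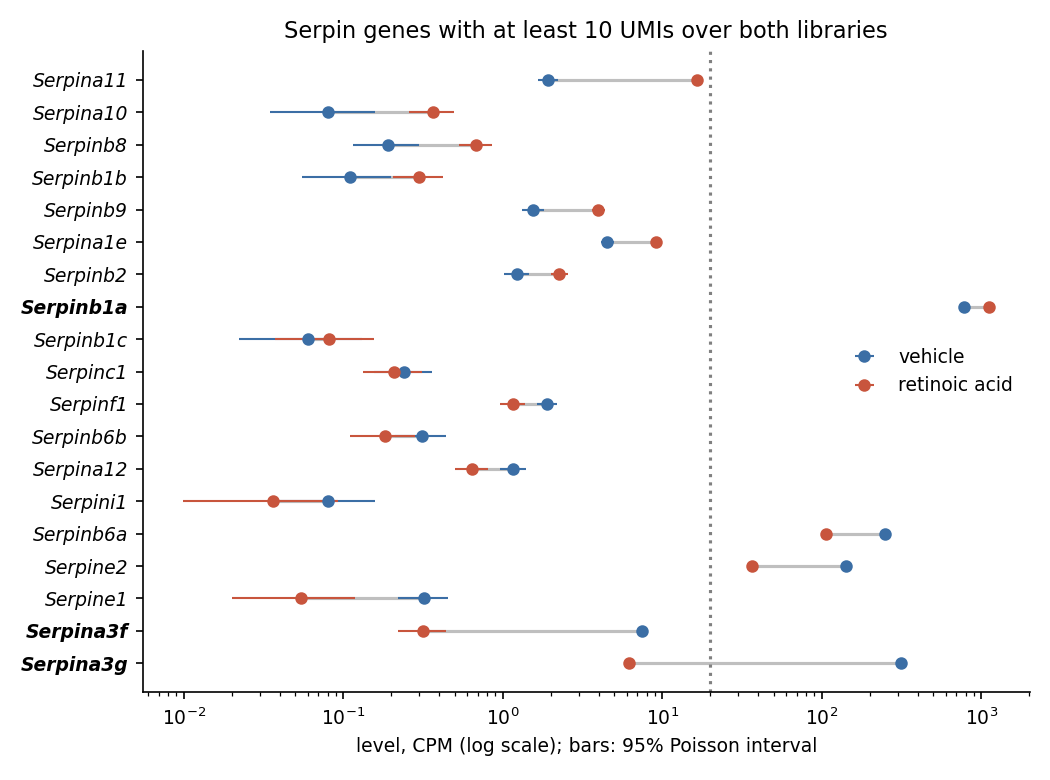
Level of each of the 19 serpin genes with at least 10 UMIs over both libraries, in CPM on a log axis, under vehicle (blue) and retinoic acid (red), ordered by their ratio, with 95% Poisson intervals as bars, the members in bold and the 20 CPM limit dotted. Serpina3g spans from 315 to 6.20 CPM, while Serpinb1a lies above every other serpin in both libraries.

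The proteases these serpins meet were set beside them. Of 19 listed serine proteases 7 had at least 20 CPM, of which 2 were at least 2-fold higher under retinoic acid (3.03% of all 5548 genes were) and none lower (5.05% of all). Elane went from 62.8 to 7663 CPM (log2 ratio 6.93) and Prtn3 from 246 to 2819 CPM (3.52). Ctsg stood at 6444 and 5979 CPM (-0.11) and Prss57, another granule protease, at 377 and 315 CPM (-0.26). Prss16, Htra2 and Mcpt8 also stayed within 2-fold. Serpinb1a moved in the same direction as Elane and Prtn3 but by a much smaller factor.

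The balance of protease to inhibitor messages in a cell consequently shifted for Elane and not in the same way for Ctsg. In the thinned vehicle cells there were 0.0712 Elane UMIs for each Serpinb1a UMI, and in the retinoic acid cells 6.33. Elane UMIs outnumbered Serpinb1a UMIs in 2.04% (1.68 to 2.46) of vehicle cells and in 83.0% (82.0 to 83.9) of retinoic acid cells. For Ctsg the ratio went the other way, from 7.71 to 4.77 UMIs per Serpinb1a UMI, and the share of cells with more Ctsg from 95.7% to 78.9%. Summed over Elane, Prtn3 and Ctsg, there were 8.09 protease UMIs per Serpinb1a UMI under vehicle and 13.5 under retinoic acid. These are ratios of captured messages and say nothing of the amounts of protein.

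Within the retinoic acid library, Serpinb1a differed little between cells rich and poor in protease messages. The retinoic acid cells were divided into 4 groups of near equal size by their thinned Elane UMIs, with medians of 2, 24, 44 and 69 UMIs. From the lowest to the highest group Serpinb1a stood at 1053, 1134, 1133 and 1152 CPM. The log2 ratio of highest to lowest was 0.13 (0.10 to 0.15), and it was -0.02 when granule genes were left out of the totals, so its sign depends on the scaling. By Ctsg (medians 2, 18, 34 and 51 UMIs) Serpinb1a stood at 1178, 1149, 1092 and 1097 CPM, a log2 ratio of -0.10 and of -0.34 on the other total. The lowest groups were also shallower, with a median of 10957 UMIs for Elane and 10696 for Ctsg against 16042 and 17816 in the highest, and the part of depth in these ratios was not tested. The Spearman correlation of Serpinb1a across the 6659 cells was 0.05 with Elane and -0.03 with Ctsg, against 0.66 between Elane and Ctsg themselves.

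Vehicle cells gave a similarly flat picture for Serpinb1a. Elane was too low for 4 groups, and the 844 cells with an Elane UMI after thinning were set against the 4438 without one. Unthinned, those 4438 cells still held 1730 Elane UMIs, 21.4 CPM against 253 CPM in the 844. Serpinb1a stood at 797 CPM in the Elane-positive cells and 780 CPM in the Elane-negative cells, a log2 ratio of 0.03. By Ctsg (medians 12, 24, 35 and 48 UMIs) it stood at 751, 767, 777 and 825 CPM, a log2 ratio of 0.14 (0.11 to 0.17). Across the same highest and lowest Ctsg groups, 5485 genes had a median log2 ratio of 0.14, so the Serpinb1a value lies at the middle of all genes.

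The share of RNA taken by Serpina3g was lower in Elane-positive vehicle cells and in those richest in Ctsg. The share of cells that held Serpina3g changed little between the 4 Ctsg groups. It was 28.2% in the 71 cells without a thinned Ctsg UMI, against 70.0% in the Ctsg-positive cells. Serpina3g stood at 267 CPM (259 to 274) in Elane-positive and 325 CPM (321 to 329) in Elane-negative cells, a log2 ratio of -0.29. Across the Ctsg groups it stood at 344, 334, 317 and 276 CPM, a log2 ratio of -0.32 (-0.37 to -0.27), where the middle 90% of 5485 genes lay between -0.58 and 0.72. In cells of 5000 to 20000 UMIs the Ctsg ratio was -0.19. At equal depth 67.1%, 71.2%, 71.4% and 68.2% of cells in the 4 Ctsg groups were positive, and the Spearman correlation across cells was -0.02. The lowest group had a median of 13610 UMIs and the highest 19561, and the part of depth was not tested. Serpina3f differed little by Elane, at 7.97 CPM in positive and 7.44 CPM in negative cells (log2 ratio 0.10, -0.18 to 0.37). Its Ctsg groups stood at 7.95, 7.55, 8.16 and 6.61 CPM (-0.27, -0.58 to 0.05), so that both of its intervals include 0.

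Across the Ctsg groups the CPM of Serpina3g rose under retinoic acid, where it had fallen under vehicle. From the lowest to the highest Ctsg group its level was 1.75, 4.64, 7.87 and 8.44 CPM, a log2 ratio of 2.25 (1.75 to 2.83). In the lowest group it was found in 0.661% of cells and in the highest in 3.43%. Set by Ctsg-positive against Ctsg-negative cells, Serpina3g was found more often in the positive cells of both libraries. The shares were 2.51% against 0.206% under retinoic acid and 70.0% against 28.2% under vehicle. The Ctsg groups differed in depth in both libraries, and the part of depth was not tested. By Elane the groups stood at 5.00, 6.78, 6.70 and 5.64 CPM, a log2 ratio of 0.17 (-0.19 to 0.55), an interval that includes 0. Serpina3f had 0, 8, 11 and 16 UMIs across the Ctsg groups and 3, 12, 14 and 6 across the Elane groups. Whether the relations differ between the libraries was not tested, since each library is 1 sample.

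**Figure D3:**
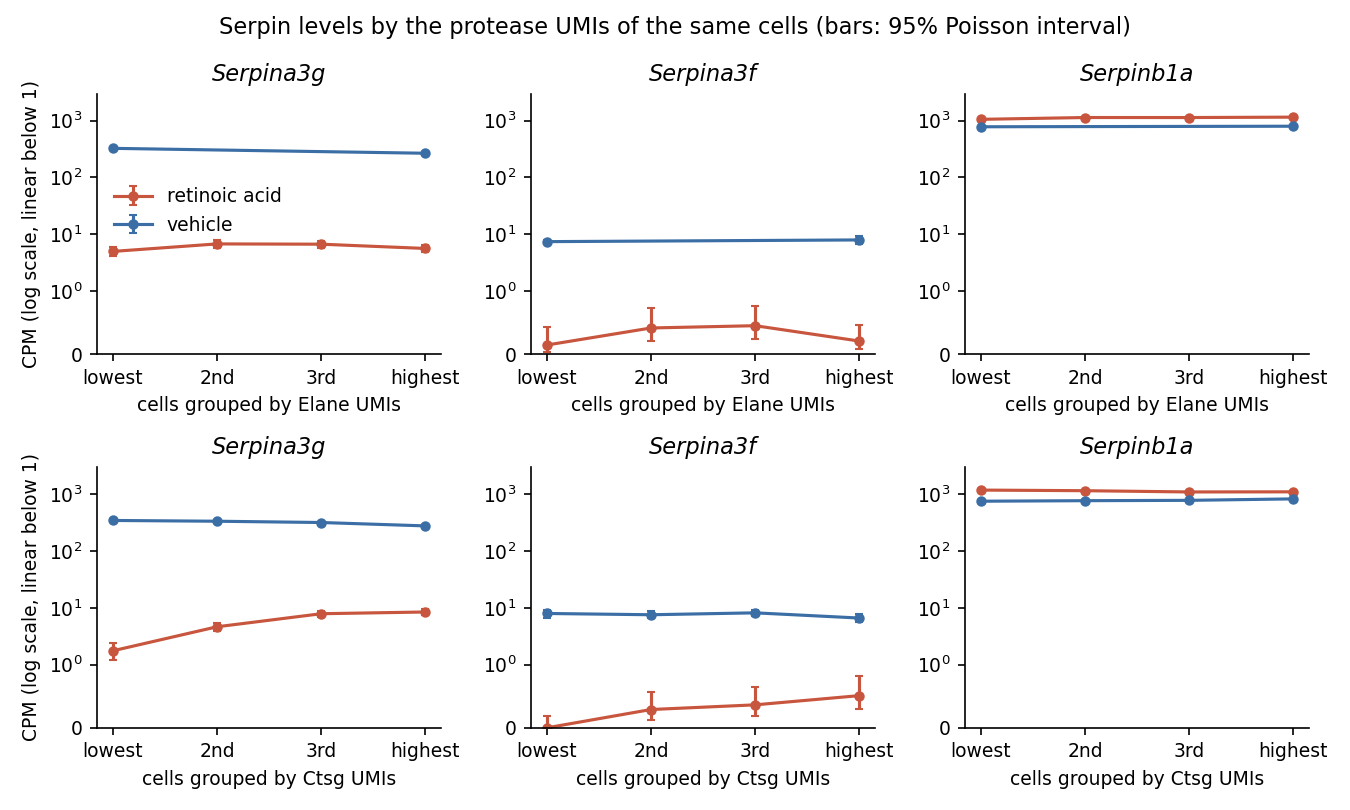
Level in CPM (vertical, log scale, linear below 1) of the 3 serpins in groups of cells ordered by their own thinned Elane UMIs (top) or Ctsg UMIs (bottom), in vehicle (blue) and retinoic acid (red), with 95% Poisson intervals as bars. Vehicle cells have only an Elane-negative group (drawn at lowest) and an Elane-positive group (drawn at highest), and the steepest line is Serpina3g under retinoic acid by Ctsg, from 1.75 to 8.44 CPM.

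The remaining Serpina3g message under retinoic acid was highest in the least mature group of cells, but not confined to it. Cells were ordered by the summed UMIs of 20 neutrophil maturation genes such as Camp, Ngp, S100a8 and Ltf, which encode granule and cytosolic proteins of later neutrophil stages. In the retinoic acid groups, with medians of 40, 114, 286 and 1015 such UMIs of 5000, Serpina3g stood at 14.5, 5.05, 1.66 and 0.762 CPM. These came from 452, 152, 46 and 15 Serpina3g UMIs. The log2 ratio of highest to lowest was -4.21 (-5.10 to -3.51), and positive cells went from 6.07% to 0.300%. Serpina3f had 25, 6, 4 and 0 UMIs in the same groups, and taking 3 UMIs for the 0 it was at least 5.27-fold lower in the most mature. Ctsg too was lower in the most mature cells, at 1315 against 8281 CPM in the least mature. Least mature is relative here, since 94.1% of cells in the lowest group held Camp.

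Serpinb1a ran the other way along the same order. It stood at 931, 1076, 1263 and 1303 CPM, a log2 ratio of 0.49 (0.46 to 0.51), or 0.79 when granule genes were left out of the totals. Over the same highest and lowest groups 5514 genes had a median log2 ratio of -0.38, with the middle 90% between -1.17 and 0.85. In vehicle cells, where the groups had medians of only 3, 5, 9 and 17 maturation UMIs, the directions were the same and the steps smaller. There Serpina3g went from 352 to 260 CPM (-0.43), Serpina3f from 8.90 to 5.18 CPM (-0.78) and Serpinb1a from 674 to 906 CPM (0.43).

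**Figure D4:**
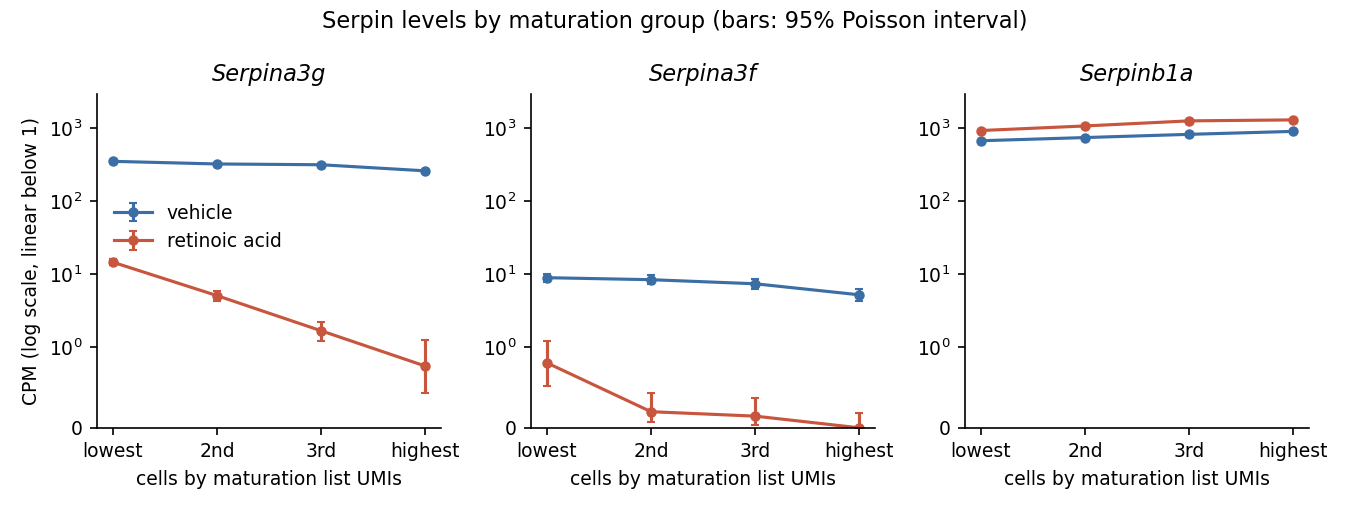
Level in CPM (vertical, log scale, linear below 1) of the 3 serpins in 4 groups of cells ordered by their UMIs of 20 neutrophil maturation genes, in vehicle (blue) and retinoic acid (red), with 95% Poisson intervals as bars. The groups were made within each library and are not matched between them. Their medians run from 3 to 17 such UMIs in vehicle and from 40 to 1015 in retinoic acid. Serpina3g is far lower in every retinoic acid group than in any vehicle group, and Serpinb1a is higher in the groups of more mature cells.

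The gap between the libraries was smaller, but still present, among cells with few maturation UMIs. Cells with at most 31 such UMIs, the limit under which 95% of vehicle cells lie, numbered 5021 under vehicle and 578 under retinoic acid. Serpina3g stood at 321 CPM in the former and 22.2 CPM (19.4 to 25.2) in the latter, 14.4-fold lower (log2 ratio -3.85, -4.04 to -3.67), with 70.9% and 9.52% of cells positive. Serpina3f stood at 7.64 and 1.13 CPM (-2.70) and Serpinb1a at 776 and 865 CPM (0.16, 0.13 to 0.19). With a limit of 7 UMIs only 45 retinoic acid cells were left, and Serpina3g stood at 38.6 CPM (27.1 to 53.5) against 334 CPM. The cells compared here differ in other ways as well, and the part of maturation in the whole difference was not tested.

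Serpina3g took a smaller share of the RNA in the most cycling cells of both libraries. By the summed UMIs of 30 cell cycle genes, vehicle cells stood at 406, 359, 290 and 258 CPM from lowest to highest (log2 ratio -0.66, -0.70 to -0.61). Retinoic acid cells stood at 10.3, 8.35, 5.65 and 2.24 CPM (-2.19, -2.61 to -1.79). The most cycling cells were deeper, with a median of 23552 against 13452 UMIs under vehicle and 17686 against 10759 under retinoic acid. In the vehicle library they held more Serpina3g UMIs in all, 8190 against 7487, so there the lower value is one of share and not of molecules counted. In the retinoic acid library they held fewer, 70 against 194 UMIs, so both the share and the count were lower there. Serpinb1a varied less, from 868 to 748 CPM under vehicle and from 1244 to 1156 CPM under retinoic acid, with its lowest value in a middle group in both.

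Cells that carried the mast cell and basophil gene Cpa3, a carboxypeptidase, held more Serpina3g. In the vehicle library Cpa3 stood at 570 CPM and under retinoic acid at 0.0999 CPM. Vehicle cells with Cpa3 and without Mpo, the myeloperoxidase gene of primary granules, (2549 cells) stood at 361 CPM of Serpina3g, and those with both (519 cells) at 373 CPM. Cells with Mpo alone (636 cells) stood at 283 CPM and those with neither (1578 cells) at 239 CPM. At equal depth 74.5% of Cpa3-positive and 62.4% of Cpa3-negative vehicle cells held Serpina3g, so the message was common in both. All 9 mast cell and basophil markers together summed to 806 CPM under vehicle and 68.1 CPM under retinoic acid, with Fcer1a and Tpsb2 at 0 in both and 63.1 CPM of the latter sum from Mcpt8, and their part in the Serpina3g difference was not tested.

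The genes whose UMIs ran most like each member across cells were listed, among genes positive in at least 10% of cells. For Serpina3g in 5282 vehicle cells they were Ifitm1 (Spearman 0.27), an interferon-inducible membrane protein gene, Tcrg-C2 (0.25), Emilin2 (0.23), Akr1c13 (0.21) and Napsa (0.19), out of 4905 genes with a median absolute value of 0.01. For Serpinb1a in 6659 retinoic acid cells they were S100a8 (0.24), Itm2b (0.24), Hp (0.24), S100a9 (0.23) and S100a6 (0.22), out of 4871 genes with a median absolute value of 0.02. S100a8 and S100a9 encode the calprotectin subunits, and Hp encodes haptoglobin. For Serpina3f, the gene most like it was Serpina3g (0.10), ahead of S100a4, Ifitm1, Napsa and Sos2 (0.08 to 0.06). All these values are low, come from cells of 1 library that share its depth and chemistry, and describe no more than a rank.

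Other inhibitor and protease groups were counted to place the serpins. Of 22 other protease inhibitor genes, 13 had at least 20 CPM, and 6 were at least 2-fold higher, 1 lower and 6 within 2-fold, where 3.03% of all 5548 genes were higher and 5.05% lower. The list had a median log2 ratio of 0.41 over the 20 with enough counts. The higher ones were Wfdc21, Stfa1, Stfa2, Stfa3, Cstdc4 and Cstdc5. The last 5 are stefin-type genes, a family of cysteine protease inhibitors whose near-identical copies can share reads. Slpi, a secreted inhibitor of elastase and cathepsin G, was the lower one, at 2403 and 1053 CPM (-1.19). Serpinb1a and Slpi, the cytosolic and the secreted inhibitor of elastase and cathepsin G, thus differed in direction.

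Cathepsins, among them the cysteine proteases that Serpina3g can inhibit, were counted in the same way. Of 13 listed, 7 had at least 20 CPM, and 3 were at least 2-fold lower (5.05% of all 5548 genes were) and none higher, with a median log2 ratio of -0.83 over 10 members with enough counts. Ctsw went from 24.2 to 2.72 CPM (-3.16), Ctsl, which encodes the lysosomal cysteine protease cathepsin L, from 22.8 to 9.29 CPM (-1.30) and Ctsh from 48.4 to 23.3 CPM (-1.06). Ctsb, the cathepsin B gene, stood at 37.0 and 39.5 CPM (0.09).

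Serpina3g is known as a gene induced by interferon-gamma and by cytokine signalling through STAT proteins, so a list of such genes was set beside it. Of 18 listed genes 6 had at least 20 CPM, and 1 was at least 2-fold lower (5.05% of all genes were) and none higher, with a median log2 ratio of 0.14 over the 16 with enough counts. Socs1, a STAT-induced feedback inhibitor, was the lower one, at 103 and 36.4 CPM (-1.50). Cish stood at 90.0 and 72.1 CPM (-0.32) and Pim1 at 242 and 186 CPM (-0.38). No listed gene at 20 CPM or more had a ratio near that of Serpina3g.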

How the data were processed

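The authors deposited 2 matrices of raw UMI counts per gene and cell, 1 per group. Per the file headers and the submitters' processing notes, the counting software was Cell Ranger 4.0.0. The submitters' processing notes name the builds mm10 and GRCm38.p4; the annotation is not given in the sources used here. Libraries are 10x 3′ v2, per the labels' protocols. No count normalisation was applied before deposit. Cells with at least 1000 UMIs, at least 500 genes and at most 10% mitochondrial UMIs were kept (310 and 276 barcodes removed). No doublet caller was run, and an alternative left out the 5% of cells with most UMIs.

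UMIs were summed per library and scaled to CPM. Ratios had 0.5 counts added. Intervals are exact Poisson (sums), exact binomial conditional on the total (ratios), Clopper-Pearson (shares) and Newcombe (differences of shares), at 95%. A sum of 0 allows 3 counts, 0.0303 CPM (vehicle) and 0.0272 CPM (retinoic acid). With 1 library per group no test was made. Cells were thinned to 5000 UMIs for shares, groups and correlations. The calculation was tested on simulated data. Coordinates are GENCODE M21 by gene identifier (32158 of 32285 matched). Python 3.11.15, numpy 2.4.6, scipy 1.17.1, pandas 2.3.3, Biopython 1.88, R 4.3.3 and edgeR 4.0.16 (TMM factors only) were used.

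The members and gene lists were chosen with earlier results of these data known. Named genes were the 3 members, Elane, Ctsg, Prtn3 and Prss57, serpins and members of the protease, cathepsin, inhibitor and interferon or STAT lists with at least 20 CPM, and the 5 genes most correlated with each member. One gene of the interferon or STAT list is not reported here. Alternatives are listed at the end.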

Additional observations from a re-analysis of the deposited data

How the results depend on the processing

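Of 87 recomputed values for 18 results, 61 moved by less than their counting interval, or by less than 1.5 times for counts of genes, 26 moved further, and the sign changed for 1 of them, Serpinb1a by Elane among retinoic acid cells. The ratios of Serpina3g and Serpina3f between the libraries stayed within their intervals under every cell filter, scaling and added count tried. The Serpinb1a ratio was 0.60 with TMM scaling and 0.63 with granule genes left out of the totals. Differences between shares of positive cells, in percentage points, moved with depth and the rule for a positive cell: for Serpina3g -53.5 (thinned to 3000 UMIs), -82.4 (not thinned) and -42.2 (at least 2 UMIs), for Serpina3f -2.03, -10.3 and -0.17, and for Serpinb1a 7.07, 0.653 and 10.4. Among retinoic acid cells the Serpinb1a log2 ratio by Elane was -0.0228 without granule genes and 0.16 in cells of 5000 to 20000 UMIs, by Ctsg -0.345 and -0.0556, and by maturation 0.79 and 0.42, the last 2 settings having been chosen after seeing the data. Among vehicle cells the Serpinb1a ratio by Ctsg was 0.10 when thinned to 3000 UMIs and 0.18 in cells of 5000 to 20000 UMIs, the Serpina3g ratio by Ctsg was -0.19 in the latter, and by Elane -0.34 when thinned to 3000 UMIs. Genes differing at least 2-fold numbered 448 at the limit of 20 CPM, 923 at 5 CPM, 133 at 100 CPM and 6081 with no limit, and serpins 3, 6, 3 and 23. No paired analysis was possible because no result comes from a test, with 1 library for each treatment. Serpina3f, at 35 UMIs under retinoic acid, is limited by depth.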
